A study of Mus musculus with 4 samples.

Results

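Cyclin-dependent kinase (CDK) inhibitors and the retinoblastoma family were measured in embryonic stem cells of the mouse, which can form every tissue of the body, through 9 genes: Cdkn1a, Cdkn1b, Cdkn2a, Cdkn2b, Cdkn2c, Cdkn2d, Rb1, Rbl1 and Rbl2. They were found as all probe sets (groups of short probes against a transcript) whose single gene symbol in the platform annotation is 1 of these names. The 9 genes had 16 probe sets, of 18193 genes and 34945 probe sets with 1 symbol. The study hybridised 4 Affymetrix arrays, 2 of the genotype WT and 2 of the genotype Suz12KO. The Suz12KO label names a knockout of Suz12, a core subunit of Polycomb repressive complex 2, which methylates lysine 27 of histone H3 at silent genes. No treatment, strain, age or culture time is given in the labels, and each genotype was a pool of RNA from 3 clones. Whether a genotype's arrays hold separate RNA is not stated. Every limma p-value therefore measures spread between arrays, which may be technical, and a difference between clones cannot be seen.

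CDK inhibitors hold back the cell cycle by binding the kinases that drive it. The Cip/Kip inhibitors, Cdkn1a (p21) and Cdkn1b (p27), bind several cyclin-CDK complexes, whereas the Ink4 inhibitors, Cdkn2a to Cdkn2d, bind Cdk4 and Cdk6, the partners of D-type cyclins. These kinases phosphorylate the pocket proteins Rb1, Rbl1 (p107) and Rbl2 (p130), which in their unphosphorylated form restrain E2F factors and so S phase genes. Mouse embryonic stem cells are known for a short G1 phase and for pocket proteins that are largely phosphorylated. Cdkn2a, which encodes both p16Ink4a and p19Arf from separate starts, and its neighbour Cdkn2b are known Polycomb targets in fibroblasts.

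The sequences before the starts of Cdkn1a and Cdkn2b are shown because these were the members that fell in Suz12KO, and those of Cdkn2a because it lies next to Cdkn2b and did not pass the test. Each line holds the 250 bases before a RefSeq start in build GRCm38.p6, 5′ to 3′ in the direction of the gene. Capitals mark matches, on either strand, to the GC box (GGGCGG), the cyclic AMP response element (CRE, TGACGTCA) or the p53 half-site consensus. The array's probe sequences were not used here, so the lines show the loci and not what the probes detect.
Cdkn1a, upstream start (chr17:29090729-29090978, plus strand): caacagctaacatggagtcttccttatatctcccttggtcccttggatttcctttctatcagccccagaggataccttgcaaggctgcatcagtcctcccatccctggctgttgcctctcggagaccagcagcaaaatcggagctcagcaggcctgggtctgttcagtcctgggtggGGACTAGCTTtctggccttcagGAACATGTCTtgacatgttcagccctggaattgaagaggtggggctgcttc
Cdkn1a, downstream start (chr17:29093519-29093768, plus strand): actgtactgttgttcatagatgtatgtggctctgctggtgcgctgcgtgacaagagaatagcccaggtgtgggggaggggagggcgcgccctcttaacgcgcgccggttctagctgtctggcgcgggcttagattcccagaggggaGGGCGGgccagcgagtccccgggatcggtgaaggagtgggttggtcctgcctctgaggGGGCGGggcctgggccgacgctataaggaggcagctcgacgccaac
Cdkn2b (chr4:89311033-89311282, minus strand): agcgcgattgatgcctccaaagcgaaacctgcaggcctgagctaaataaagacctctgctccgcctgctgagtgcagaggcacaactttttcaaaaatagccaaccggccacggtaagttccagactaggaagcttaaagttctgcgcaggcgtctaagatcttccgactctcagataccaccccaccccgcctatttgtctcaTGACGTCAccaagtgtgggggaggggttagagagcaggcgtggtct
Cdkn2a, upstream start, from which p19Arf is made (chr4:89294620-89294869, minus strand): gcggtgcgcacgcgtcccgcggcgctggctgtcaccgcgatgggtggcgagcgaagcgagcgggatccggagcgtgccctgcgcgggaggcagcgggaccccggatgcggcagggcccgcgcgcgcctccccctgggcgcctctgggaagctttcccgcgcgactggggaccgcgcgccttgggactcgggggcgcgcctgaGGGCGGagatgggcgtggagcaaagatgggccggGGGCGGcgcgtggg
Cdkn2a, downstream start, from which p16Ink4a is made (chr4:89282193-89282442, minus strand): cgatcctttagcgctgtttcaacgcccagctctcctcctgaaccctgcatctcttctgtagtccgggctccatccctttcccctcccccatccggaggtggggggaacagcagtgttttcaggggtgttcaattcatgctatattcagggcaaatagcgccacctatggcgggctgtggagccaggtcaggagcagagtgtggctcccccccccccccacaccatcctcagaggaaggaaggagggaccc

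Windows were found for 8 of the 9 members (11 windows, Rb1 without one) among 32851 of the same length. The upstream Cdkn1a window held 2 p53 half-site matches, and the nearer one to the start, GAACATGTCT, lay 51 to 42 bases before it. Such a match was held by 7.13% of all windows and, among the other members, by that of Cdkn2d. Cdkn1a is a classical target of p53, the factor that responds to DNA damage. The Cdkn2b window held a CRE, 46 to 39 bases before the start, which 1.55% of all windows held. The GC box, found in 32.7% of all windows, occurred in the downstream Cdkn1a window and the upstream Cdkn2a window and in those of Cdkn1b, Cdkn2c, Cdkn2d and Rbl1, but not in the window of Cdkn2b. The E2F motif (TTTCGCGC or TTTGGCGC) was found in 0.65% of all windows and, among members, in that of Rbl1, 18 to 11 bases before its start. The windows of Cdkn1a and Cdkn2b had no motif of those searched in common. The motifs were chosen after reading the sequences, so these shares do not measure how unusual a match is. A match is a description of letters, and no binding was measured here.

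The deposited values are signal intensities on a linear scale, and the number of arrays limits their precision. Unused bacterial spike probe sets, which read low, reached 141 and 191 for WT and 195 and 174 for Suz12KO, and a signal at or under the highest spike of its array is here called within background. Suz12 itself fell, with signals of 1097 and 1094 in WT against 217 and 369 in Suz12KO for its brightest probe set. Its log2 difference was -1.89 (limma adjusted p = 0.0021). Averaging its probe sets, some of them within background, gave -1.67 (limma adjusted p = 0.0602). In both Suz12KO arrays the brightest Suz12 probe set was still above background, as was another (274 and 301). The rest were not above it in both. Of 12 embryonic stem cell markers 11 rose and 0 fell, the largest rises being those of Nanog (2.04 on the log2 scale), Klf4 (2.03) and Fgf4 (1.81), and their summed signal was 77709 to 78020 in WT and 132478 to 136149 in Suz12KO. Dppa5a, the brightest, read 29439 and 27580 in WT against 55767 and 56548 in Suz12KO. After centring each array on its median 9 rose and 1 fell, and averaging probe sets gave 9 higher and 0 lower. Each of the 12 markers lay above background in every array of both genotypes. That does not show what share of the cells were stem cells.

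Cdkn1a and Cdkn2b fell in Suz12KO, and no member rose. Of the 9 genes, 8 had enough signal to be tested with 1 probe set per gene, and 2 fell, 0 rose and 6 did not pass limma (adjusted p under 0.05 over all tested genes). Among all 12735 tested genes 5.5% were lower, 4.48% higher and 9.97% either by the same rule, so the share of members that fell rests on 2 genes. Those shares depend on the scaling: 570 genes were higher and 700 lower as deposited, and 294 higher and 1243 lower after centring each array on its median, while the same members fell. At an unadjusted p under 0.05 the members gave the same counts, 2 lower and 0 higher. Of all 12735 tested genes, 2966 lay under that level in either direction, so the members' counts do not stand out from it. The median log2 difference of the 8 tested members was -0.0015, against 0.04 for all tested genes. The genotypes did not overlap for 3 of the 8 members (Cdkn1a, Cdkn2b and Cdkn2d), against 52.9% of all tested genes. When every probe set was tested, 12 of the 16 passed the filter on dim signal, and 3 fell and 0 rose, where 3.99% of all 24461 tested probe sets were lower, 2.82% higher and 6.81% either. The genotypes did not overlap for 4 of these 12, against 50% of all tested probe sets. At an unadjusted p under 0.05, 0 of the members' probe sets were higher. Without a dependence of the variance on signal, limma called 0 genes of any kind, members included (smallest adjusted p = 0.0999, with 2332 genes, 2 members among them, at an unadjusted p under 0.05).

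**Figure D1:**
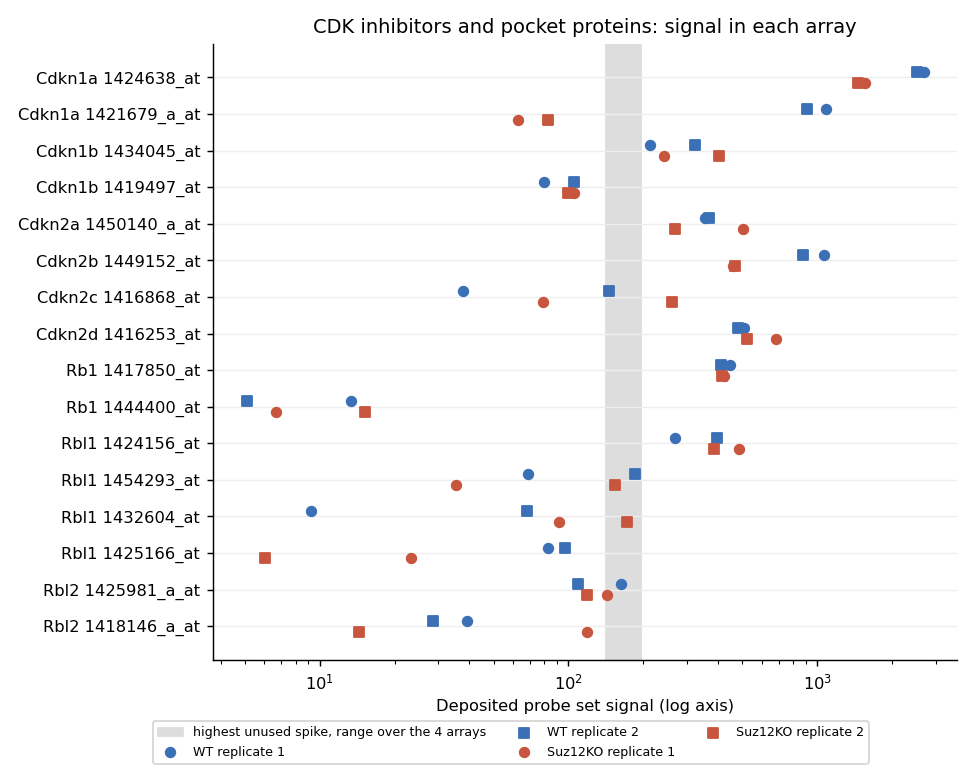
Deposited signal (log axis) of the 16 probe sets in each of the 4 arrays, WT in blue and Suz12KO in red; the grey band is the range of the highest unused spike, 141 to 195. Both Cdkn1a probe sets and the Cdkn2b probe set show WT points to the right of Suz12KO points, and 6 probe sets lie within background in all 4 arrays.

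Cdkn1a encodes p21, the inhibitor that p53 induces, and both of its probe sets fell, by unequal amounts. The brighter probe set, 1424638_at, read 2672 and 2514 in WT against 1554 and 1457 in Suz12KO. Every WT value lay above every Suz12KO value, and all 4 were above background. The log2 difference was -0.78 (SE 0.11, 95% interval -1.02 to -0.54, limma adjusted p = 0.0016 with 1 probe set per gene), a fall of 1.72-fold. By p-value this placed Cdkn1a at rank 292 of the 12735 genes.

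The other Cdkn1a probe set, 1421679_a_at, read 1079 and 908 in WT against 62.6 and 82.9 in Suz12KO. It was thus well above background in WT and within it in both Suz12KO arrays. Measured against the highest spike it was at least 5.38-fold lower. Its fitted log2 difference of -3.51 (95% interval -4.31 to -2.71, limma adjusted p = 0.00047 over all probe sets) is not exact for that reason. The suffix a marks, by the maker's convention, a probe set that matches several transcripts of 1 gene, and RefSeq lists 2 messenger RNAs of Cdkn1a with the separate starts shown above. Which of these each probe set detects was not examined.

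The Cdkn1a probe sets thus fell by 1.72-fold and by at least 5.38-fold. With all signals raised to at least the highest spike of their array, their changes differed by 1.64 on the log2 scale. Averaging both probe sets gave a Cdkn1a log2 difference of -2.15 (limma adjusted p = 0.000858) in place of -0.78, a value that rests in part on signals within background. The size of the fall therefore depends on the probe set while its direction does not.

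**Figure D2:**
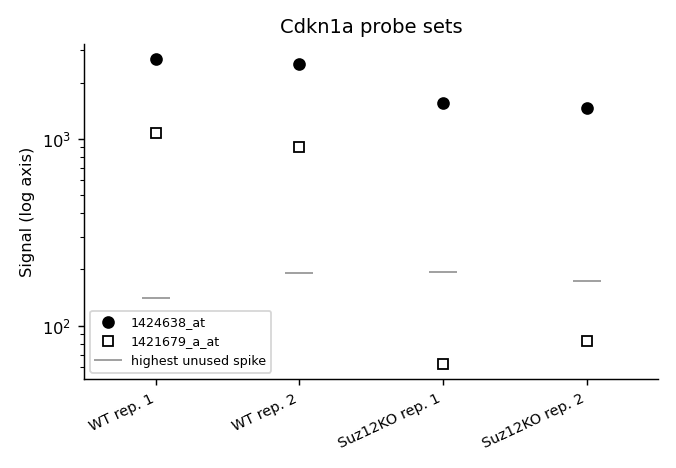
Signal (log axis) of the Cdkn1a probe sets in each of the 4 arrays, with the highest unused spike of each array as a dash. 1424638_at stays above the spike in all arrays, and 1421679_a_at drops below it in both Suz12KO arrays, to 62.6 and 82.9.

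Cdkn1b encodes p27, the other Cip/Kip member of this set, whose protein level is set largely by degradation. Its brighter probe set read 213 and 322 in WT against 243 and 402 in Suz12KO. The genotypes overlapped, and within each of them the array numbered 2 was the higher one. The log2 difference of 0.24 (95% interval -0.66 to 1.15, limma adjusted p = 0.773) did not pass, and it was -0.04 without WT replicate 1 and -0.10 without Suz12KO replicate 2. The second Cdkn1b probe set, at 79.8 and 105 in WT against 105 and 99.3 in Suz12KO, lay within background throughout. The interval spans a fall of 0.66 and a rise of 1.15 on the log2 scale, so a change of Cdkn1b mRNA in either direction within that range is not excluded.

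Among the Ink4 inhibitors Cdkn2b, which encodes p15 and is induced by TGF-beta in many cells, was the one that fell. Its single probe set read 1061 and 875 in WT against 460 and 465 in Suz12KO. Both Suz12KO arrays lay at nearly the same level, and the spread was in WT. The log2 difference was -1.03 (SE 0.20, 95% interval -1.48 to -0.59, limma adjusted p = 0.0099), which ranks 639 by p-value among 12735 genes. The call was lost without WT replicate 1 (-0.90, adjusted p = 0.100) and kept without any other single array (adjusted p 0.0102 to 0.0375).

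Cdkn2a, the gene beside Cdkn2b on chromosome 4, did not pass the test. Its single probe set read 354 and 365 in WT against 501 and 267 in Suz12KO, all above background. The Suz12KO values lay on either side of the WT values. The log2 difference was 0.03 (95% interval -0.77 to 0.82, limma adjusted p = 0.977). Without Suz12KO replicate 1 it was -0.41 and without Suz12KO replicate 2 it was 0.46, so 1 array sets its direction, and it was also -0.03 under quantile normalization and -0.14 after centring each array on its median. RefSeq lists 2 messenger RNAs of Cdkn2a, and 1 probe set cannot tell p16Ink4a from p19Arf. The difference between the changes of Cdkn2a and Cdkn2b was not tested.

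Cdkn2d (p19Ink4d) read 509 and 479 in WT against 683 and 520 in Suz12KO. The genotypes did not overlap, but the log2 difference of 0.26 (95% interval -0.26 to 0.79, limma adjusted p = 0.551) did not pass. Cdkn2c (p18Ink4c) read 37.6 and 146 in WT against 78.9 and 261 in Suz12KO, and Suz12KO replicate 2 was its only array above background. It was too dim to be tested with 1 probe set per gene and did not pass over all probe sets (0.80, 95% interval -1.16 to 2.76), so it has no usable fold change.

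**Figure D3:**
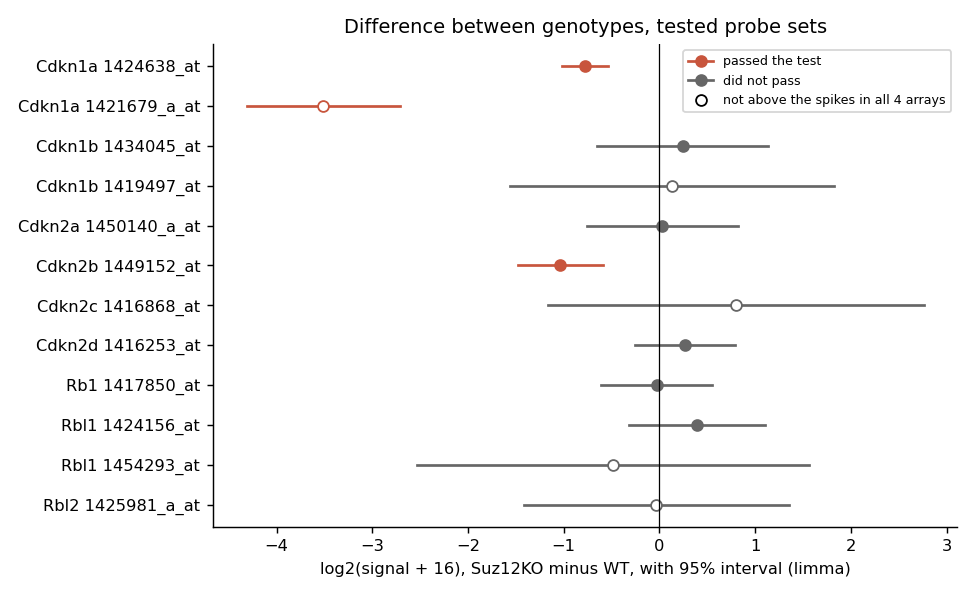
Log2 difference (Suz12KO minus WT) with its 95% limma interval for the 12 tested probe sets; red marks the 3 that passed, open circles those not above the spikes in all 4 arrays. The Cdkn1a and Cdkn2b intervals lie below 0, and the other 9 cross 0.

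The pocket proteins did not pass the test in either direction. Rb1, the retinoblastoma protein, read 445 and 411 in WT against 423 and 413 in Suz12KO. These values were close to each other across all 4 arrays, with a log2 difference of -0.03 (95% interval -0.61 to 0.55, limma adjusted p = 0.966). Its second probe set read 5.09 to 15.2 and gives no level.

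Rbl1 (p107), itself a known E2F target, read 268 and 395 in WT against 486 and 384 in Suz12KO. The genotypes overlapped, and the log2 difference of 0.39 (95% interval -0.32 to 1.10) did not pass (limma adjusted p = 0.509). The 3 other Rbl1 probe sets lay within background in every array and moved in different directions. One of them read 82.5 and 96.4 in WT against 23.3 and 6.04 in Suz12KO, another 9.23 and 68.0 in WT against 92.0 and 172 in Suz12KO, and neither was tested. Averaging these with the bright one turned the Rbl1 value to -0.08. Rbl2 (p130), the pocket protein of resting cells, read 162 and 109 in WT against 142 and 118 in Suz12KO, with WT replicate 1 alone above background. Its log2 difference of -0.03 (limma adjusted p = 0.985) says little, since it was near the limit of detection in all arrays, and its second probe set lay within background throughout.

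Of the 2 CDK-inhibitor genes outside the member set that were listed, neither passed limma, and 0 had an unadjusted p under 0.05. Cdkn1c (p57), the third Cip/Kip inhibitor, read 1546 and 1334 in WT against 1584 and 1264 in Suz12KO. Cdkn3, a phosphatase of CDK complexes, read 650 and 441 in WT against 614 and 623 in Suz12KO.

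Among the cyclins and kinases that these inhibitors bind, the D-type cyclins did not move one way. Of 14 tested cyclin and CDK genes 2 rose, 2 fell and 10 missed the threshold (median log2 difference 0.01). Cyclin D3 (Ccnd3) rose by 0.72 (SE 0.09), from 2817 and 2495 in WT to 4418 and 4318 in Suz12KO. Ccnb2, a mitotic cyclin, rose by 0.60 (SE 0.09). Cyclin D1 (Ccnd1) fell by 0.46 (SE 0.08), from 5324 and 5297 to 3722 and 4022. Cyclin D2 (Ccnd2), at 1729 and 1826 in WT against 1397 and 1261 in Suz12KO, had no overlap between genotypes but missed the threshold (-0.42, limma adjusted p = 0.0634). Cdk6, a kinase that Ink4 proteins bind, fell by 0.74 (SE 0.16), from 1238 and 1494 to 737 and 879, and lost its call without WT replicate 2 (adjusted p = 0.169). After centring the list held 2 rises and 4 falls, and averaging the probe sets of a gene ended the calls of Ccnd3 (0.90, adjusted p = 0.0812) and Cdk6 (-0.46).

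Downstream of the pocket proteins, the E2F and DP factors gave 1 rise and 1 fall among 10 tested (median -0.0046). E2f1 (1.36) and E2f2 (1.47, within background in both WT arrays) had positive differences that missed the threshold. Before adjustment, 3 of the factors were higher and 4 lower at a limma p under 0.05. E2f5, an E2F that pocket proteins bind in resting cells, rose by 0.83 (SE 0.22), and Tfdp1, the dimer partner of E2F, fell by 0.37 (SE 0.07). The E2f5 call was lost after centring, without a filter and on leaving out WT replicate 2 (0.42) or the first Suz12KO array (adjusted p 0.0534 to 0.0996 in these fits), the difference was 1.25 on leaving out WT replicate 1 and 0.12 with averaged probe sets, while that of Tfdp1 was lost without WT replicate 1 (adjusted p = 0.0910). Of 19 tested E2F target genes of S phase, 5 rose, 0 fell and 14 missed the threshold (median 0.34). At an unadjusted p under 0.05, 11 were higher and 1 was lower, where 2966 of all 12735 tested genes passed in either direction. The licensing factor Cdt1 rose by 0.49 (SE 0.07), and the helicase subunits Mcm6 by 0.43 (SE 0.07) and Mcm2 by 0.37 (SE 0.06). The count moved both ways with the processing. It was 9 of 19 under quantile normalization and with the replicate block, which also gave 1 lower, and 8 of 18 with the filter at the 50th percentile. After centring 1 of the 19 was higher and 1 lower, with Mcm6 (0.26) and Mcm2 (0.20) no longer called and Cdt1 at 0.32. Averaging probe sets left 2 of 18 higher, with Mcm6 at 0.18 and Cdt1 at 0.54, neither of them called. The MuvB core represses cell cycle genes together with Rbl1 or Rbl2, and activates them when Mybl2 (B-Myb) is bound in their place. Of 6 tested MuvB and Myb genes, Mybl2 rose by 1.28 (SE 0.08), from 2379 and 2471 to 5875 and 5928, and 5 did not pass. Of 4 tested genes of the SCF-Skp2 ligase, which marks Cdkn1b protein for degradation, Skp1 rose by 0.26 and Cks1b fell by 0.25. The Skp1 call ended without a filter, after centring (0.09) and without 3 of the 4 single arrays, and that of Cks1b without WT replicate 1 or WT replicate 2 and with s, x and a probe sets left out (-0.17), while Cks1b stood at -0.42 after centring. Averaging probe sets ended both calls (Skp1 0.19, adjusted p = 0.350; Cks1b -0.21, adjusted p = 0.0916).

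Upstream, genes of the p53 pathway other than Cdkn1a moved in both directions: of 13 tested, 4 fell, 1 rose and 8 missed the threshold (median -0.24). Of the 16 listed genes 14 had a probe set with 1 symbol, and Trp53, the p53 gene itself, was not among them. The targets Phlda3 (-0.82, SE 0.20), Ccng1 (-0.62, SE 0.07) and Pmaip1 (-0.57, SE 0.09) were the 3 lowest of the list, and Mdm4, which restrains p53, rose by 1.16 (SE 0.26). Ccng1, a cyclin G gene, read 10664 and 10421 in WT against 6509 and 7195 in Suz12KO. The size for Phlda3 rests on the Suz12KO arrays, which read 1882 and 3225, and was -0.44 on leaving out the first of them and -1.21 on leaving out the second, so that its place ahead of Ccng1 and Pmaip1 (-0.55 each without the first) is not settled. Leaving out either WT array ended the call of Phlda3, as did averaging probe sets. Leaving out replicate 2 of WT (1.01) or of Suz12KO (0.97) ended that of Mdm4. Without a filter 2 of 14 tested genes of the list fell, and with averaged probe sets 2 of 13. With probe sets of the suffixes s, x and a left out, whose probes can match more than 1 transcript, the Mdm4 difference was -0.05, and with averaged probe sets it was 0.56 and not called.

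For Cdkn2b, 9 TGF-beta and Smad genes were tested: Tgfb2, a TGF-beta ligand, fell by 2.45 (SE 0.20), the inhibitory Smad7 rose by 0.47 (SE 0.11), and the other 7 missed the threshold (list median -0.25). Tgfb2 read 1728 and 1540 in WT against 251 and 323 in Suz12KO. Smad7 was no longer called after centring or when WT replicate 1 or either Suz12KO array was left out (adjusted p 0.0562 to 0.174), and averaging probe sets gave 0.15 (adjusted p = 0.761). Of 14 tested regulators of the Cdkn2a locus 2 rose, 2 fell and 10 missed the threshold (median 0.17). Tbx3, a T-box factor that represses the locus, rose by 2.65 (SE 0.23), and the Polycomb subunit Eed by 0.36 (SE 0.08). Ets1, an activator of p16Ink4a, fell by 1.49 (SE 0.23), and the demethylase Kdm6b, which acts on the Polycomb mark, by 1.06 (SE 0.24). Eed was no longer called after centring or when either WT array or Suz12KO replicate 2 was left out, and for Kdm6b the difference was -0.06 when WT replicate 1 was left out and 0.01 when WT replicate 2 was, where another of its probe sets became the brightest, and -0.70 without the first Suz12KO array. Averaging probe sets ended the calls of Tbx3 (1.98, adjusted p = 0.0542) and Ets1 (-0.43), and of Eed (-0.42) and Kdm6b (-0.77).

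**Figure D4:**
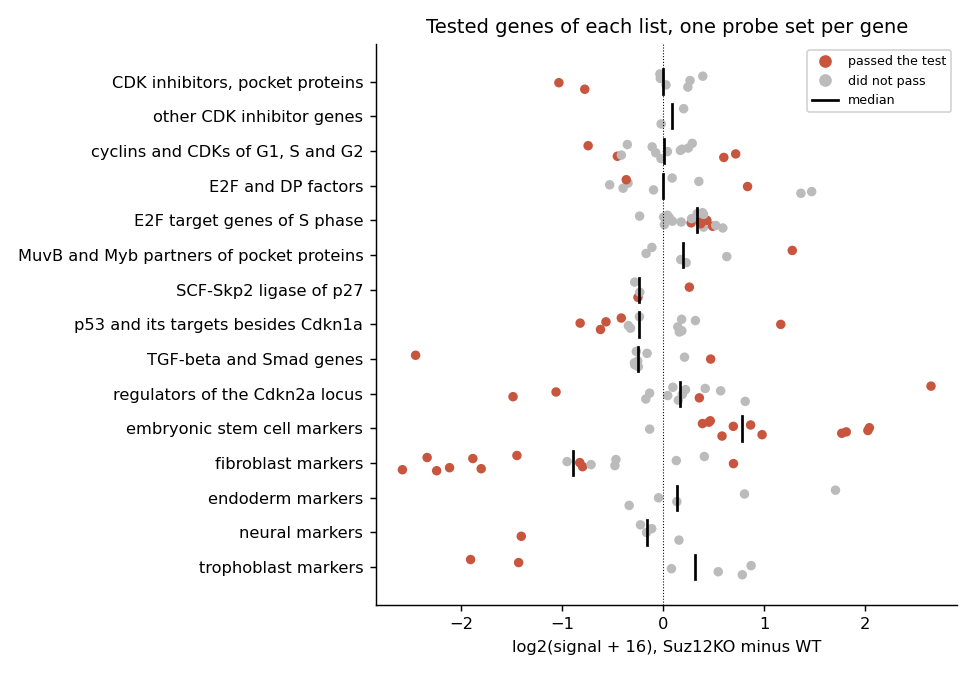
Log2 difference (Suz12KO minus WT) of every tested gene of each list, 1 probe set per gene, with genes that passed limma in red and the list median as a bar. Among the CDK inhibitors and pocket proteins 2 red points lie below 0 and none above it, and the fibroblast markers have 9 red points below 0 and 1 above.

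Most tested fibroblast markers fell alongside Cdkn1a and Cdkn2b, and the neural, trophoblast and endoderm lists did not move as groups. Of 21 fibroblast markers on the array 16 were tested, and 9 fell, 1 rose (Col6a2, 0.70) and 6 missed the threshold (median -0.89). The Col6a2 difference was 0.05 with averaged probe sets (adjusted p = 0.939), and its call was also lost with pseudocount 1, without a filter, with robust eBayes, after centring and on leaving out either WT array or Suz12KO replicate 2. The largest falls were those of Col1a1 (-2.58), Thbs1 (-2.34) and Acta2 (-2.25, but -1.08 with averaged probe sets, and -0.54 and not called with the s, x and a probe sets left out). The summed signal of the list was 108239 to 110763 in WT and 35568 to 35738 in Suz12KO. Most of the WT sum is carried by the bright Acta2 (33742 and 33855), Vim (25142 and 26968) and Tagln (20226 and 21055). Postn, Pdgfrb, Lum and Dcn were within background in all 4 arrays. Fibroblasts can be present as feeder cells in such cultures, and in pooled bulk RNA fewer cells of a type and less RNA per cell cannot be told apart. Of 5 tested neural markers 1 fell, Nes (-1.41, and -0.77, not called, with averaged probe sets), with a list median of -0.17, and the list summed to 3620 to 3800.4 in WT against 2108 to 2583 in Suz12KO. Nes alone, at 2150 and 1674 in WT against 702 and 709 in Suz12KO, carries most of that change. Of 6 trophoblast markers the keratins Krt8 (-1.91) and Krt18 (-1.43) fell, while Cdx2 (0.78), Eomes (0.54), Gata3 (0.08) and Hand1 (0.87) had positive differences that missed the threshold, Hand1 with an unadjusted limma p of 0.016, and the list median was 0.31. The summed signal of the trophoblast list, 32089 to 33138 in WT against 11880 to 11976 in Suz12KO, is carried by the bright keratins. None of 5 tested endoderm markers passed limma (median 0.13), with 1 higher, Sox7, and 0 lower at an unadjusted p under 0.05. Sox7 (1.71) was within background in both WT arrays, and Sox17 (0.80) and Gata4 (0.13) also had positive differences. Dab2 (-0.34) and Gata6 (-0.05) were negative, and Dab2 was the brightest. The endoderm list summed to 1959 to 2170 in WT against 2104 to 2373 in Suz12KO, with 3 of its 8 genes within background in all arrays. The part of these differences in those of Cdkn1a and Cdkn2b was not tested.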

How the data were processed

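Messenger RNA was measured on 4 arrays, grouped by the sample titles. The deposited values are probe set signal intensities on a linear scale, with no summarisation software named in the labels. Every array had the same trimmed mean of 500.003 (2% left out at each end), so the authors had scaled the deposited intensity to 1 level per array, which hides any shift common to most genes. Gene symbols are those of the platform annotation (34945 probe sets with 1 symbol, 932 with several, 9160 with none, 64 controls).

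Values were transformed as log2(signal + 16), and folds of dim genes are therefore understated. The brightest probe set represented each gene, and genes in the lowest 30 percent by mean level were not tested. A second fit held every probe set, filtered in the same way. Genotypes were compared with limma 3.58.1 in R 4.3.3 (eBayes with trend, two-sided, Benjamini-Hochberg over all tested features), which was first tested on simulated data. Background was the highest of 27 unused spike probe sets per array. Where a genotype lay within it, the fold is a lower bound on log2 signal without pseudocount. Promoter windows came from RefSeq, and the motifs were chosen after reading the sequences. Figures were drawn with matplotlib 3.10.9.

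The members and lists were chosen with earlier results of these data known. Named genes are all members, Suz12 and, per list, up to 3 rises and 3 falls past the test or the 2 brightest tested genes where none passed. Some genes that missed the threshold are named beside them. Alternatives were another pseudocount, normalization, filter, variance model or choice of probe set, the replicate number as a block, and leaving out each array.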

Additional observations from a re-analysis of the deposited data

How the results depend on the processing

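Of 142 recomputed log2 differences of the tested members and of Cdkn1c and Cdkn3, 127 kept their direction and their side of the threshold. Centring each array on its median gave 294 genes higher and 1243 lower, and averaging probe sets gave 305 genes higher and 306 lower. Across genes, the deviations of arrays with equal replicate numbers had a correlation of 0.02. With 2 arrays per genotype this cannot decide whether such arrays were paired. With the replicate numbers as a block there were 1016 genes higher and 1082 lower. Leaving out 1 array gave 370 to 792 genes lower, 1 to 2 members lower, and Cdkn2b at -1.17 to -0.90. Without trend, limma called 0 genes higher and 0 lower, 0 members and 0 of their probe sets lower (2 members and 3 probe sets at an unadjusted p under 0.05), and the adjusted p was 0.135 for Cdkn1a (-0.78), 0.123 for Cdkn2b (-1.03) and 0.165 for the steeper Cdkn1a probe set (-3.51).

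Some directions turned. Quantile normalization gave -0.028 for Cdkn2a, -0.045 for the dim Cdkn1b probe set and 0.034 for Cdkn1c, and centring gave -0.14 for Cdkn2a and -0.037 for the dim Cdkn1b probe set. Averaging probe sets gave -0.075 for Rbl1, -0.42 for Eed and 0.25 for Gata6, and leaving out s, x and a probe sets gave -0.047 for Mdm4. Leaving out 1 array gave ranges of -0.10 to 0.59 for Cdkn1b, -0.040 to 0.16 for the dim Cdkn1b probe set (not tested without WT replicate 2), -0.41 to 0.46 for Cdkn2a, -0.086 to 0.026 for Rb1, -0.29 to 0.085 for Rbl2 (to 0.22 over all probe sets) and -1.11 to 0.38 for a dim Rbl1 probe set. Outside the members the ranges were -0.18 to 0.14 for Cdkn1c, -0.072 to 0.47 for Cdkn3, -1.42 to 0.012 for Kdm6b, -0.70 to 0.028 for Dab2 and -0.14 to 0.042 for Gata6. The cause was not tested. Signals within background limit Cdkn2c, Rbl2 and the second probe sets.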
